A study of Mus musculus with 10 samples.

Results

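The 10 genes described here encode actin regulators: the Ena/VASP proteins Evl, Enah and Vasp, and the WAVE complex subunits Nckap1, Abi1, Abi2, Wasf1, Wasf2, Cyfip1 and Cyfip2. Their splicing was read in Neuro-2a (N2A) cells, an established mouse neuroblastoma line, 72 h after transfection with 40 nM of siRNAs that target Qk (siQk, n = 3) or that have no target (siNT, n = 3). It was also read in glutamatergic neurons differentiated in vitro from mouse embryonic stem cells, which at 7 days in vitro were left untreated (n = 2) or given 100 uM of cycloheximide for 12 h (n = 2). No genetic change is given in the labels for either cell source. The labels call the N2A samples biological replicates of the line and do not say whether its wells were seeded on separate days, so the spread between them may be partly technical. Events were taken by exact gene symbol, which gave 615 of the 661162 events in the N2A table, from 10 of its 26264 gene names. They comprise 180 cassette exons and 162 introns, and, among splice sites with alternatives, 172 at the 3' and 101 at the 5' side of an intron. The genes were selected on results of the siQk against siNT comparison itself, so their values in it are a description, and no p-value is given for them.

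Ena/VASP proteins bind the growing ends of actin filaments, deliver actin monomers to them and oppose capping. The WAVE complex holds a WAVE protein (Wasf1 or Wasf2) inactive together with a Cyfip protein, which binds the GTPase Rac, with Nckap1, the large partner of Cyfip, and with an Abi adaptor. Rac frees the WAVE protein to activate the Arp2/3 complex, which starts branched filaments in lamellipodia, growth cones and dendritic spines. Qk (Quaking) is an RNA-binding protein of the STAR family that recognises ACTAAC or ACTAAT in DNA letters and can promote or block the inclusion of exons near its sites. Microexons are cassette exons of 3 to 27 nt, many of which are included mainly in neurons. Cycloheximide stops translation, and so also the decay of RNA that depends on translation.

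The percent spliced in (PSI) of an exon, intron or splice site is the percentage of the gene's transcripts that use it. The exon sequences on which the results turn are shown first, on mm10 and 5' to 3', with the exon in capitals and the nearest 30 bases of each neighbouring exon in lower case, as they join in an annotated transcript. The Evl exon had the largest difference between siQk and siNT among the 10 genes, and its counterpart by length and reading frame in Enah is shown for comparison.
Evl 63 nt exon, chr12:108683348-108683410, plus strand: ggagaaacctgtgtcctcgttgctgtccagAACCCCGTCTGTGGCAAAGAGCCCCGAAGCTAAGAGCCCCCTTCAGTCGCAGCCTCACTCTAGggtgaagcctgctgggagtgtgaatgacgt
Enah 63 nt exon, chr1:181911597-181911659, minus strand: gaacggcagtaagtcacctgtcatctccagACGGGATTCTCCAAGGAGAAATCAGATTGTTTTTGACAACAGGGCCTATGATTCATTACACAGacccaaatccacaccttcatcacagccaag

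Both 63 nt exons are coding, keep the reading frame and hold no stop codon in it. Placed end to end without gaps they share 16 of 63 bases, or 25.4%. The microexons of the WAVE complex subunits and of Enah follow, because they differ in whether Qk knockdown, cycloheximide or both went with a change.
Nckap1 18 nt exon, chr2:80571213-80571230, minus strand: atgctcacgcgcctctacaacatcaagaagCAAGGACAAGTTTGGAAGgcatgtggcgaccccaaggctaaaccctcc
Abi2 18 nt exon, chr1:60438942-60438959, plus strand: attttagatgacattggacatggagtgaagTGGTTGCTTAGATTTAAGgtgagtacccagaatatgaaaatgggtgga
Abi1 15 nt exon, chr2:22963214-22963228, minus strand: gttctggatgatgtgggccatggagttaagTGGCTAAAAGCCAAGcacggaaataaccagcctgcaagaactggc
Enah 12 nt exon, chr1:181931174-181931185, minus strand: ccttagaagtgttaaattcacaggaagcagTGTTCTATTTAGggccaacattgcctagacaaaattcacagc

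The Abi1 and Abi2 microexons follow coding sequence in which 22 of 30 bases are identical, and both begin with TGG. All 4 microexons have lengths that are multiples of 3 and hold no stop codon in frame. The Nckap1 microexon is exon 2 of 32 in transcript Nckap1-202, near the start of the protein, and the Evl exon is exon 11 of 14 in Evl-201.

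Each N2A sample held 26587151 to 80455753 reads on exon events, and the siQk samples 1 and 2 were the shallowest. The tested cassette exons of the 10 genes had a median of 244 to 795 reads per sample and never fewer than 146. The read depth of the neuron samples is unknown. Qk, the gene targeted by the siRNA, had a junction coverage (CPM, counts per 1e6, here the reads of all exon events of a gene) of 90.8, 82.9 and 82.5 in siNT and of 8.18, 12.3 and 13.0 CPM in siQk, so 13.1% of the siNT mean remained. Of 14 listed neuron and neuroblastoma markers 12 have a row in the coverage table, and 10 of these 12 reached 1 CPM, with a summed level of 1530 to 1577 CPM in siNT and of 1599 to 1733 CPM in siQk. The other 2, Dcx and Nefm, stood at 0.0781 and 0.0258 CPM in siNT and 0.0827 and 0.0125 CPM in siQk, respectively. None of 4 astrocyte markers and none of the 3 microglia or blood markers with a row (of 4 listed) reached 1 CPM, while 2 of 4 oligodendrocyte markers (summed level 14.6 to 17.1 CPM in siNT and 17.2 to 19.0 CPM in siQk), 1 of 3 endothelial markers (5.49 to 8.95 and 9.66 to 13.5 CPM) and 1 of 5 fibroblast and muscle markers (1.86 to 2.50 and 2.56 to 2.93 CPM) did. The part of these levels in the results below was not tested. The neuron table holds no coverage, so the neuron label was not checked.

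All 180 cassette exons of the 10 genes had at least 10 reads in each N2A sample. Most were fixed: 143 had a mean PSI above 98 and 24 a mean PSI below 2, and none of those differed by more than 1.39 points between the groups. The remaining 13 exons, in 7 genes, entered the comparison. A call needed an adjusted p under 0.05 (limma over the whole table, Benjamini-Hochberg within the event class) and group means that lay 10 or more percentage points apart. By that rule 2 of the 13 were called, 1 lower in siQk (Evl) and 1 higher (Nckap1), where 1.18% of 12930 tested cassette exons of the whole table were called. The 2 groups did not overlap for 7 of the 13, against 14.6% of all tested cassette exons. The median absolute difference was 2.59 points for the 13 and 1.82 points for all tested. Since the genes were chosen with these values known, the shares are set side by side and nothing is read from them.

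**Figure D1:**
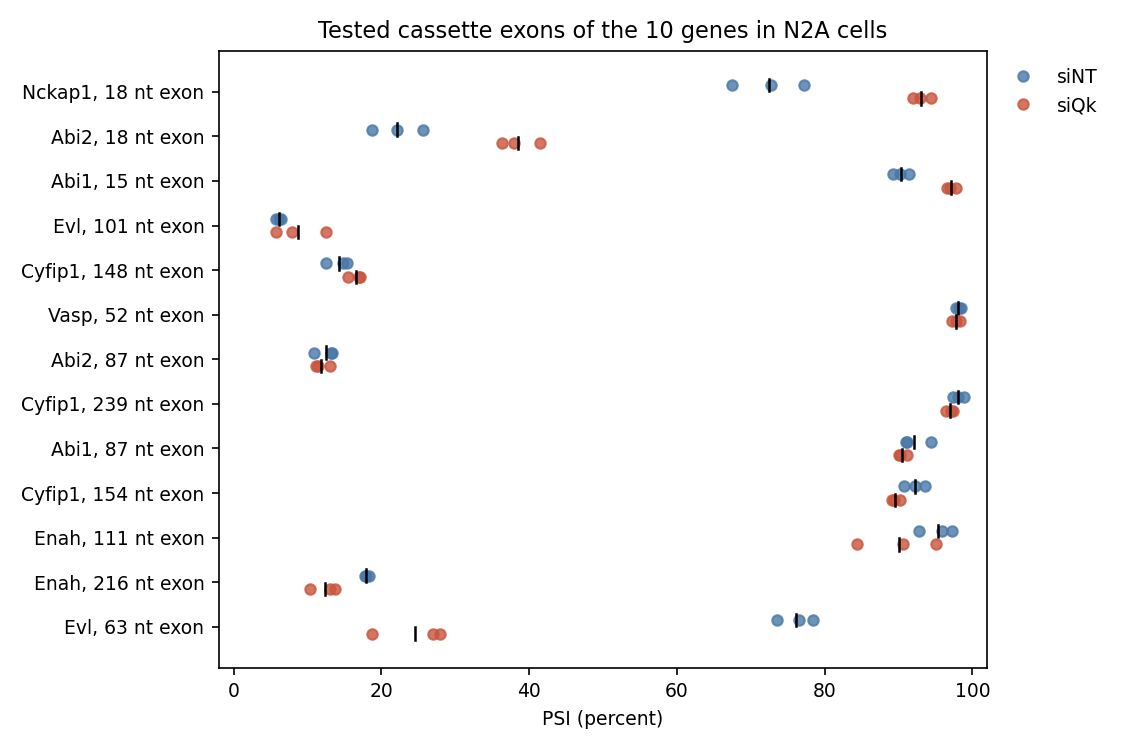
PSI in percent (horizontal axis) of the 13 tested cassette exons of the 10 genes, 1 row per exon, in order of the difference between siQk and siNT. Each point is 1 of the 3 siNT (blue) or 3 siQk (red) samples and each black bar is a group mean; the Evl 63 nt exon at the bottom lies between 73.5 and 78.5% in siNT and between 18.8 and 27.9% in siQk.

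Among the Ena/VASP genes, the 63 nt exon of Evl went from included in most transcripts to skipped in most. In human cells the form with this insert is known as EVL-I, and the insert is a target of protein kinase D. Its PSI was 73.5, 76.5 and 78.5% in siNT and 18.8, 26.95 and 27.9% in siQk. All siQk samples lay far below all siNT samples, and siQk sample 1 was the lowest. The mean fell from 76.1% ± 2.503 (SD, n = 3) to 24.6% ± 5.02 (SD, n = 3), a difference of -51.6 points with a standard error of 3.24. As a log2 ratio of inclusion reads over exclusion reads, the change was -3.32 with a standard error of 0.21. The reads show the same shift: in siNT sample 3, 1452 reads joined the exon to its upstream neighbour, 1408 joined it to the downstream one and 387 skipped it, whereas in siQk sample 3 these numbers were 608, 528 and 1443. The exon was called in each of 14 alternative fits.

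The 86 nt intron before the Evl exon is covered by an annotated transcript that retains it, Evl-205, which allows its sequence to be shown in full because it precedes the exon that fell most.
Evl intron before the 63 nt exon, chr12:108683262-108683347, plus strand: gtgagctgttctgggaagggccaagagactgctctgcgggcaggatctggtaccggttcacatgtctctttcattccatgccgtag
Neither ACTAAC nor ACTAAT occurs in these letters on either strand. Of 7700 annotated introns of at least 86 nt that a retaining transcript covers, 2.96% hold ACTAAC or ACTAAT on the sense strand, which reads like the RNA, in their last 86 bases. The intron after the exon was not searched. Retention of the 2 introns around the exon was low: the one before it had a mean PSI of 2.49% in siNT and 2.33% in siQk, and the one after it had 4.32, 2.06 and 3.38% in siNT and 4.61, 6.62 and 4.50% in siQk.

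Evl has a second tested exon, of 101 nt (chr12:108605911-108606011), whose exact ends are not annotated. It was included at 5.76, 6.46 and 6.19% in siNT and at 5.76, 12.4 and 7.90% in siQk, so the groups overlapped and siQk sample 2 alone stood high. The other 13 cassette exons of Evl were fixed, with a difference of at most 0.21 points.

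Enah (Mena) is the paralogue of Evl whose 63 nt exon is known from the epithelial form of the protein. In N2A cells that exon was hardly used: its PSI was 2.46, 1.52 and 1.55% in siNT and 0.60, 0.21 and 0.56% in siQk. The siQk values were all lower, but they rest on 2 to 16 inclusion junction reads a sample, and the mean PSI was below the limit of 2 for the comparison. The exons of 63 nt thus stood at opposite ends in control N2A cells, at 76.1% in Evl and under 2.5% in Enah in every sample.

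The tested Enah exon with the largest difference was a 216 nt exon (chr1:181922285-181922500), with a PSI of 17.7, 18.3 and 17.9% in siNT and 10.3, 13.1 and 13.7% in siQk. The groups did not overlap, and the mean went from 17.97% ± 0.30 to 12.4% ± 1.81 (SD, n = 3 each). It was not called. Its inclusion reads all came from 1 of its junctions (281, 189 and 366 in siNT and 98, 90 and 257 in siQk), with 0 at the other in every sample, and its exact ends are not annotated. The 1059 nt intron that borders it upstream was retained at 12.0, 12.2 and 7.42% in siNT and 14.9, 15.2 and 13.1% in siQk, a difference of 3.86 points without overlap, also not called.

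The next exon of Enah, of 111 nt, had a mean PSI of 95.3% in siNT and 90.0% in siQk, with overlapping groups. Its 3' splice site is shared between a near and a far position: the near site made up 55.2, 57.4 and 59.7% in siNT and 55.5, 49.6 and 52.5% in siQk. The site 192 nt upstream made up 44.0, 41.9 and 40.0% in siNT and 43.3, 48.7 and 46.9% in siQk. The groups overlapped for both sites. Vasp, the remaining Ena/VASP protein, had 1 tested exon, of 52 nt, at 98.1% ± 0.33 in siNT and 97.7% ± 0.56 in siQk (SD, n = 3 each).

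Among the WAVE complex genes, the microexons of Nckap1, Abi2 and Abi1 had a higher PSI in every siQk sample than in any siNT sample, and the Nckap1 exon was the one called. Of the 410 tested microexons of all genes, 37.3% likewise had groups that did not overlap, in either direction. The 18 nt exon of Nckap1 had a PSI of 77.2, 67.5 and 72.7% in siNT and of 93.0, 91.9 and 94.4% in siQk. Every siQk sample lay above every siNT sample, and the siQk samples were closer together. The mean rose from 72.5% ± 4.84 to 93.1% ± 1.22 (SD, n = 3 each), by 20.6 points with a standard error of 2.88, or by 2.33 with a standard error of 0.27 on the log2 ratio scale. Skipping reads made up 213 of 491 reads of the exon in siNT sample 2 and 20 of 163 in siQk sample 2. It was called in each of 14 alternative fits, and the authors' deposited list of neural microexons places it in the class Qk_repressed with ACTAAY side None (Y stands for C or T). That list combines the replicates of the same siNT and siQk groups (72.7 and 93.1% for this exon). Its classes are therefore not independent of the values given here.

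Abi2, an adaptor that links the complex to its partners through an SH3 domain, has an 18 nt microexon that was included at 18.7, 22.0 and 25.6% in siNT and at 41.4, 36.3 and 37.9% in siQk. The groups did not overlap. The mean went from 22.1% ± 3.44 to 38.5% ± 2.62 (SD, n = 3 each), a difference of 16.4 points with a standard error of 2.496. It was not called in the whole-table fit because its adjusted p was above the limit, and it was called in 4 of 13 alternative fits. The authors' deposited list nevertheless gives it the class Qk_repressed, with ACTAAY side Upstream. The last 100 bases of its upstream intron are shown with the motif in capitals, since this is the member whose entry in that list names a site.
Abi2 intron before the 18 nt exon, last 100 bases, chr1:60438842-60438941, plus strand: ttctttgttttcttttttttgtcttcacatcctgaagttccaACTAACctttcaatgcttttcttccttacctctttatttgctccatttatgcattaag
The letters ACTAAC end 52 bases before the exon, and no second match to ACTAAC or ACTAAT, on either strand, lies in this window. The whole intron of 1709 nt holds 2 matches on the sense strand and 2 on the other strand. Of 7069 annotated introns of at least 100 nt that a retaining transcript covers, 3.51% hold ACTAAC or ACTAAT on the sense strand in their last 100 bases.

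Abi1, the paralogue of Abi2, includes its 15 nt microexon in most transcripts. Its PSI was 89.3, 91.4 and 90.2% in siNT and 97.8, 96.6 and 97.0% in siQk. All siQk samples lay above all siNT samples. The mean went from 90.3% ± 1.04 to 97.1% ± 0.60 (SD, n = 3 each), and the difference of 6.82 points kept it below the limit of 10 points for a call. The authors' deposited list classes it as Qk_NoChange_CS with ACTAAY side None.

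For these microexons the deposited PSI differs from the plain share of junction reads. The mean of the 2 inclusion junctions, divided by that mean plus the skipping reads, gave 45.5% ± 6.00 in siNT and 80.9% ± 2.94 in siQk for Nckap1 (SD, n = 3 each). It gave 7.99% ± 1.47 and 16.1% ± 1.54 for Abi2, and 68.1% ± 2.60 and 88.6% ± 2.20 for Abi1. The groups stayed apart in all 3, but the differences became 35.4, 8.07 and 20.5 points, so the Abi1 exon would pass and the Abi2 exon would miss a limit of 10 points. For the Evl exon the same calculation gave 76.4% and 24.8%, close to the deposited values. This calculation was added after the data were seen.

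Of the 11 microexons of the 10 genes in the N2A table, these 3 were the ones tested, 1 of which was called. Among all genes, 7.32% of 410 tested microexons were called. The other 8 had a mean PSI below 2, with no sample above 1.4%.

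**Figure D2:**
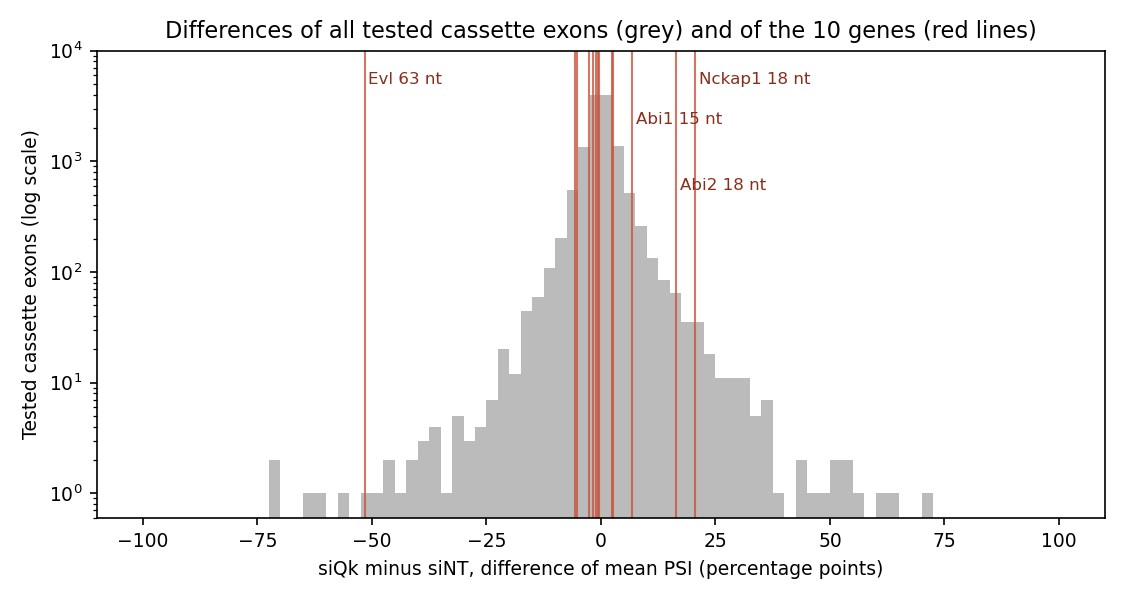
Number of tested cassette exons of the whole N2A table (vertical axis, log scale) by the difference of mean PSI between siQk and siNT in percentage points (horizontal axis, bins of 2.5 points). Red lines mark the 13 exons of the 10 genes: Evl lies at -51.6, Nckap1 at 20.6, Abi2 at 16.4 and Abi1 at 6.82 points, and the other 9 lie between -5.59 and 2.56 points.

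Around the limit of 10 points, the Abi2 microexon at 16.4 points was the nearest exon inside it and the Abi1 microexon at 6.82 points the nearest outside. The Abi genes also share a longer alternative exon of 87 nt, which differed little between siNT and siQk in either gene but was used very differently by them. These exons are shown because they are close copies of each other that sit at opposite levels.
Abi1 87 nt exon, chr2:22950184-22950270, minus strand: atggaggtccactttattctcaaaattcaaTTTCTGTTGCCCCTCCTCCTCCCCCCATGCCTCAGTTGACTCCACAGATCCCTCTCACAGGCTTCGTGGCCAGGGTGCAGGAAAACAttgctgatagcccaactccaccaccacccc
Abi2 87 nt exon, chr1:60464529-60464615, plus strand: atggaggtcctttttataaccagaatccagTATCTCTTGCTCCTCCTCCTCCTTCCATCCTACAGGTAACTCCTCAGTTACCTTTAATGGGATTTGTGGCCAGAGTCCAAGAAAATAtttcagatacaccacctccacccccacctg

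They share 64 of 87 bases (73.6%) in an alignment without gaps. The Abi1 exon was included at 91.0, 94.4 and 91.1% in siNT and 91.1, 90.0 and 90.2% in siQk. The Abi2 exon was included at 13.2, 13.4 and 10.9% in siNT and 11.1, 11.4 and 13.0% in siQk. The siNT and siQk groups overlapped in both genes. The same order holds for the microexons of the pair, at 90.3% in Abi1 and 22.1% in Abi2 in siNT.

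Nckap1 also had the largest difference among alternative splice sites. The exon after the one that follows its microexon has 3' splice sites 6 nt apart, and the longer form adds the 6 bases in capitals, shown here with 30 bases of transcript Nckap1-201 on either side.
Nckap1 longer form, chr2, minus strand, first base 80554790: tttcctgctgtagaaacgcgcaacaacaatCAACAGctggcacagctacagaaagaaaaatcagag
The longer form made up 7.07, 12.6 and 17.0% in siNT and 23.5, 28.8 and 30.3% in siQk. The groups did not overlap, with a gap of 6.49 points between the highest siNT and the lowest siQk sample. The mean went from 12.2% ± 4.96 to 27.5% ± 3.62 (SD, n = 3 each), a difference of 15.3 points with a standard error of 3.54. The 2 sites of the pair mirror each other and are not independent. Neither was called in the whole-table fit; both were called in 6 of 13 alternative fits, among them without siNT 1, without siNT 3, without siQk 2, with no limit on the mean PSI and at 15 points with no p.

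**Figure D3:**
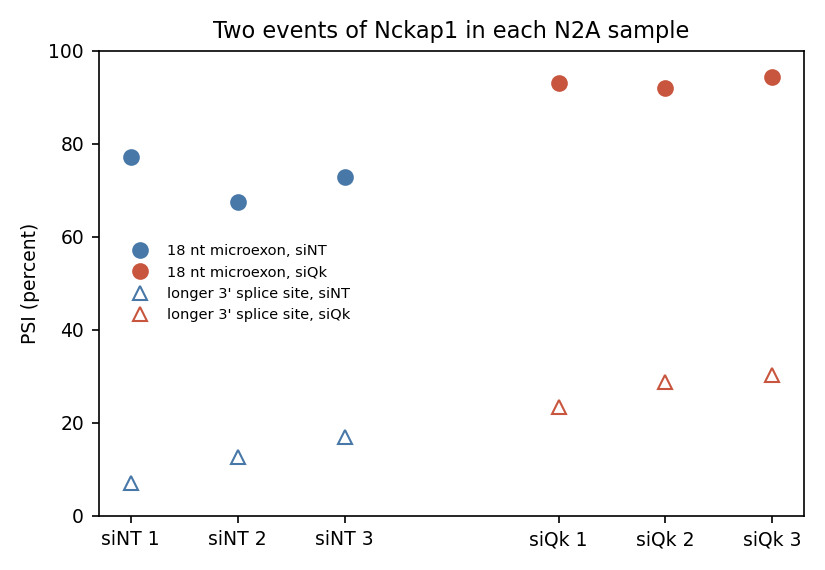
PSI in percent (vertical axis) of the Nckap1 18 nt microexon (filled circles) and of the longer 3' splice site 6 nt apart from its partner (open triangles) in each of the 3 siNT (blue) and 3 siQk (red) N2A samples. Both are higher in every siQk sample than in any siNT sample, with group means of 72.5 and 93.1% for the microexon and of 12.2 and 27.5% for the site.

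The remaining subunits differed little. Cyfip1 had 3 tested exons. Its 154 nt exon was included at 92.3, 93.5 and 90.7% in siNT and 90.3, 89.1 and 89.3% in siQk, and the neighbouring 148 nt exon at 12.5, 15.4 and 14.8% in siNT and 17.1, 15.5 and 17.0% in siQk. The groups were apart by a small margin in both, with differences of -2.59 and 2.32 points. The last, of 239 nt, had means of 98.1% and 97.0%. Neither length of the first 2 is a multiple of 3. Both leave the same remainder on division by 3, so using 1 in place of the other would keep the reading frame. Their differences ran in opposite directions, and whether the 2 exons replace each other was not tested.

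Wasf1, Wasf2 and Cyfip2 had no exon between the PSI limits. Their cassette exons with the most reads were included at 100% in all 6 samples (Wasf1, 629 nt), at 97.7 to 99.8% (Wasf2, 156 nt) and at 97.5 to 100% (Cyfip2, 129 nt). Wasf1 has 3' splice sites 3 nt apart, of which the shorter form made up 13.8, 12.7 and 15.3% in siNT and 18.5, 17.4 and 16.4% in siQk. The groups were apart and the difference was 3.51 points. A 36638 nt intron of Wasf1 was retained at 11.9, 2.79 and 7.33% in siNT and 1.68, 5.56 and 6.51% in siQk, with overlapping groups.

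In the other event classes no member was called by the limma fit. Of 162 member introns 13 were tested, with differences between -2.75 and 3.86 points, and 0.113% of 17664 tested introns of the table were called. The groups did not overlap for 2 of the 13, against 10.4% of all tested. Of 172 alternative 3' splice sites 12 were tested, and 0.101% of 9943 in the table were called. The groups did not overlap for 4 of the 12, in the Nckap1 and Wasf1 pairs, against 9.55% of all tested. Of 101 alternative 5' splice sites 2 were tested, a Wasf2 pair that differed by 1.43 points, and 0.107% of 7498 in the table were called.

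Mean junction coverage of the 10 genes in siQk was between 82.4% (Wasf1) and 111% (Wasf2) of its siNT mean. None of the 10 was called by limma at an adjusted p under 0.05, where 4.21% of 10851 genes were. The fold changes on the log2(CPM + 0.5) scale ran from -0.28 in Wasf1 to 0.15 in Wasf2, with a median of -0.08 for the 10 and of 0.02 for all genes tested. Evl, whose exon fell most, had 365, 361 and 391 CPM in siNT and 353, 348 and 353 CPM in siQk. Nckap1 had 807, 736 and 771 CPM in siNT and 699, 695 and 685 CPM in siQk. In both genes the groups did not overlap. Coverage includes the junction reads of the changed exon itself, so for Evl it is not independent of the fall in inclusion. That Evl exon event held 2253, 1680 and 3247 reads in siNT and 1117, 848 and 2579 in siQk, not scaled for depth. With these reads taken out of the Evl coverage, the groups overlap, since siNT sample 2 then lies below siQk samples 1 and 3.

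Wasf1, a WAVE protein found mainly in brain, had 150, 160 and 159 CPM in siNT and 131, 128 and 127 CPM in siQk. Its siQk samples all lay below its siNT samples, at 82.4% of the siNT mean. The 3 genes whose groups did not overlap (Evl, Nckap1 and Wasf1) compare with 26% of all genes tested. For Evl this rests on coverage that includes the reads of its changed exon, and without those reads its groups overlap. In such bulk samples, fewer cells that express a gene and less RNA per cell cannot be told apart.

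**Figure D4:**
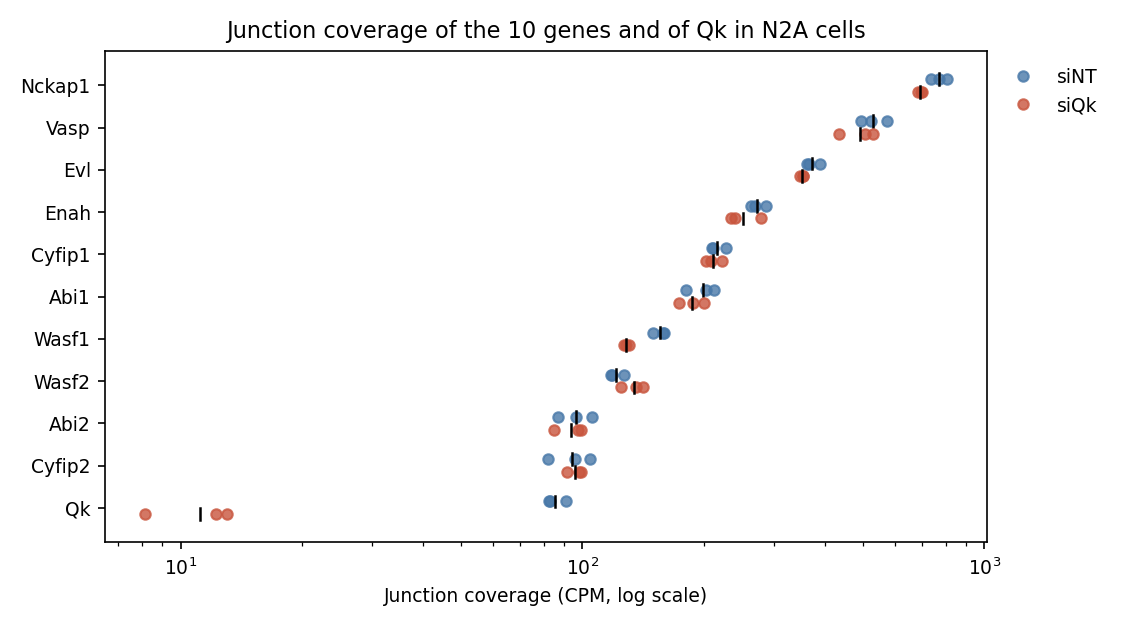
Junction coverage in CPM (horizontal axis, log scale) of Qk and of the 10 genes, 1 row per gene in order of the siNT mean. Points are the 3 siNT (blue) and 3 siQk (red) samples and black bars are group means; Qk lies at 82.5 to 90.8 CPM in siNT and 8.18 to 13.0 CPM in siQk, and Wasf1 at 150 to 160 CPM in siNT and 127 to 131 CPM in siQk.

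In the neurons, the authors' deposited comparison of microexons holds 6 exons of the 10 genes, in Nckap1, Abi1, Abi2 and Enah. It gives 1 PSI per condition with replicates combined, so no spread or test across samples is available. Its headers do not say which PSI column belongs to the untreated neurons. The first column was read as theirs, after the order of the conditions in the table's title, and every direction given for cycloheximide would turn round if the order were the other way. Exons that table puts 10 or more points apart, with a probability of 0.9 or higher, were counted as changed. By that rule 3 of the 6 changed, all lower with cycloheximide under that reading, where 9.4% of 2469 exons changed, 177 of those 232 lower.

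The Nckap1 exon went from 77.1% in untreated neurons to 56.4% with cycloheximide in the authors' deposited table, a difference of -20.7 points. The Abi1 15 nt exon went from 97.4% to 85.6% there, a difference of -11.8 points. The Enah 12 nt exon had the largest difference of the 6 in that table, from 28.4% to 4.04%, or -24.4 points. Each of the 3 has a probability of 1 in the table. The Abi2 18 nt exon stood at 0.22% and 0.25% in the authors' deposited table, and the other Abi1 and Enah microexons, of 15 and 12 nt, stayed below 0.38% in both conditions.

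Set beside the N2A cells, the Nckap1 and Abi1 microexons were higher with siQk there and, with the columns read in that order, lower with cycloheximide in neurons. The Abi2 exon stood at 22.1% in siNT cells by the deposited PSI and at 7.99% by the plain share of junction reads. In the 2 neuron conditions it stood at 0.22 and 0.25%. The Enah 12 nt exon showed the reverse. Its inclusion reads in N2A cells numbered 0 or 1 of 233 to 710 reads a sample, where 3 reads would make 0.42 to 1.29% of the reads. On the PSI scale that floor is higher, since 1 inclusion read gave 0.53% in siNT sample 1 and 1.4% in siQk sample 2. The exon stood at 28.4% and 4.04% in the 2 neuron conditions. The cell types were quantified in separate tables, and the difference between them was not tested. The 63 nt exon of Evl is longer than the microexon limit and was not analysed in neurons here.

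**Figure D5:**
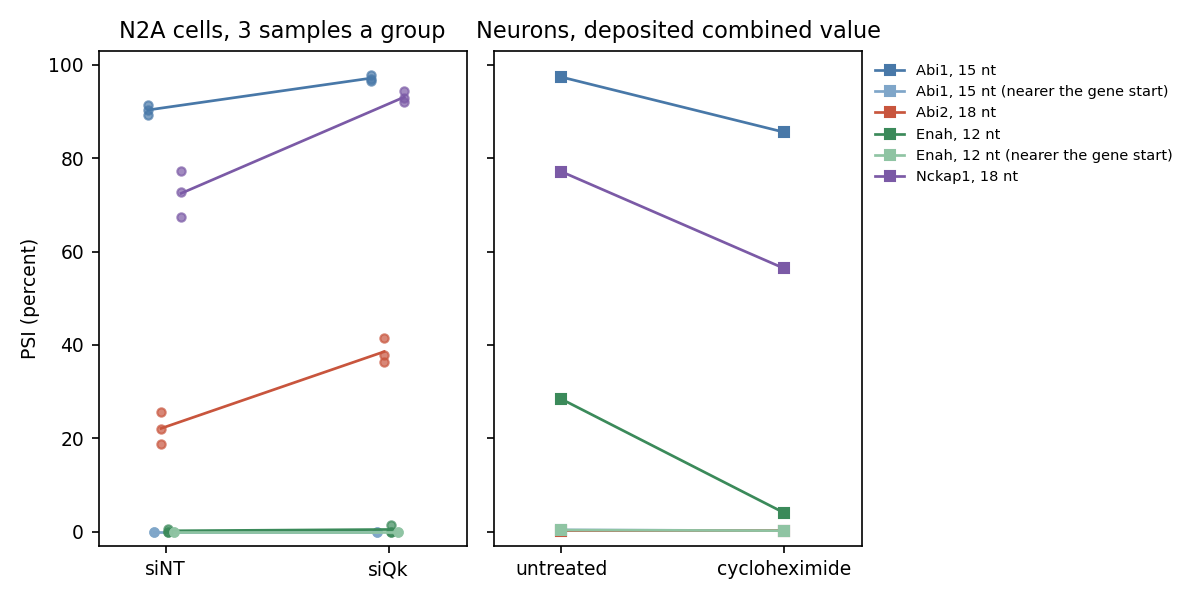
PSI in percent (vertical axis) of the 6 microexons of Abi1, Abi2, Enah and Nckap1 that both tables hold. On the left, points are the 3 siNT and 3 siQk N2A samples and lines join the group means; on the right, squares are the authors' combined values for untreated and cycloheximide-treated neurons, where Nckap1, Abi1 and the Enah exon at 28.4% are lower with cycloheximide if the column named first is the untreated one.

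Among 12860 tested cassette exons of other genes, those whose PSI over the 6 N2A samples came nearest to the Evl exon were in Uap1 (48 nt), Clstn1 (57 nt), Lrrfip2 (72 nt), Ssbp3 (81 nt) and Ncam1 (3 nt), with a mean absolute difference of 8.09 to 10.9 points a sample. Nearest to the Nckap1 microexon were exons of Kifc3 (27 nt), Rpgrip1l (77 and 152 nt), Bin1 (24 nt) and Epb41l1 (36 nt), at 2.98 to 4.24 points. The Kifc3 exon went from 68.8% ± 3.06 to 94.4% ± 2.65 (SD, n = 3 each), and the Uap1 exon from 86.6% ± 1.87 to 30.3% ± 1.31 (SD, n = 3 each).

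Beyond the 10 genes, 136 other genes of actin assembly were listed by role, of which 61 had a tested cassette exon. A called exon was found in 2 of the 61 genes (3.28%), both higher in siQk, against 2.38% of 5599 tested genes outside the list and the 10, and 2 of the 7 tested among the 10. The 126 nt exon of Fmnl2, a formin that acts downstream of Cdc42, was included at 15.8, 14.6 and 14.9% in siNT and 28.8, 30.7 and 29.4% in siQk. All siQk samples lay above all siNT samples.

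No exon was called in the Arp2/3 complex (1 of 10 genes tested), among the other WAVE complex and WASP family genes (7 of 16), the Rac and Cdc42 proteins and adaptors (15 of 27), the Ena/VASP partners (4 of 13) or the monomer, capping and severing proteins (9 of 26). Exons of Cobll1 (25.5 points), Fnbp1 (-24.8), Daam2 (21.6) and Mprip (-21.4) differed more than the Fmnl2 exon, without overlap, but were not called. Their shallowest samples held 12, 127, 13 and 32 reads, respectively. The calls in the list changed when 1 sample was left out. Leaving out siNT 2, siNT 3, siQk 2 or siQk 3 left 0 of the genes called, and leaving out siQk 1 left Fmnl2 alone. Calls over the whole table also fell, from 152 cassette exons to between 83 and 149, and the cause was not tested.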

How the data were processed

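Polyadenylated RNA was sequenced in 10 samples, with stranded libraries per the labels' protocols. The authors deposited, per the file headers, a percent spliced in (PSI) for each event and N2A sample, with junction read numbers in a text cell (another kind of value). For neural microexons and for the neurons they deposited PSI and probabilities as a fraction, replicates combined, with an entropy score that was not used; the condition named first in that table's name was taken as untreated. Fractions are printed in percent. The build is mm10, per the submitters' processing notes. The authors' software was not given in the sources used here.

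To be tested, an event had to have 10 reads or more in all 6 N2A samples and a PSI that averaged between 2 and 98. The inclusion and exclusion reads that the text cell gives, which split the event's reads in the ratio of the deposited PSI, were compared as log2((inclusion + 0.5)/(exclusion + 0.5)) with limma 3.58.1 in R 4.3.3 (variance trend, robust, two-sided), and calls were made as described above. Exon-event reads summed per gene, of which 0.0293 to 0.0331% per sample had no gene name and were left out, gave CPM; log2(CPM + 0.5) was fitted by limma-trend for genes averaging 20 reads or more. A read can count in several events. Read numbers cover counting error only, since PCR copies cannot be told apart. TMM scaling was tried as an alternative. The fits were also run on simulated data, with exon shifts larger than the limit for a call, and nothing is read from that run here. Cycloheximide-treated and untreated neurons (2 samples each) could not reach an exact permutation p below 0.33.

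The members and lists were chosen with earlier results of these data known. Named events were those called, the exon with the largest difference of each gene (or the most reads), microexons tested or in the deposited lists, and the 2 largest differences of each other class; the Abi 87 nt exons, the Enah 63 nt exon and the remaining tested exons were added after their values were seen. Sequences come from GENCODE M21 transcripts, so exons are shown with neighbouring exon bases in place of the intron bases first planned, and intron letters only where an annotated transcript retains the intron. Python 3.11.15, pandas 2.3.3 and matplotlib 3.10.9 were used. The values of 1 called gene of the actin list are not reported here.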

Additional observations from a re-analysis of the deposited data

How the results depend on the processing

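The Evl and Nckap1 exons were called under each of the 14 alternatives tried, and between 2 and 3 member cassette exons were called in all. Leaving out 1 sample at a time moved the Evl difference between -53.3 and -48.7 points and that of the Nckap1 microexon between 18.1 and 23.0 points. The Abi2 microexon was called with a pseudocount of 1, with at least 20 reads, with limma on PSI and at 15 points with no p, and the Abi1 microexon with the adjusted p alone. From 0 called alternative 3' splice sites the count became 2 with no filter on the mean PSI and at 15 points with no p, and 0 to 2 when 1 sample was left out. Of the 136 listed actin genes 2 had a called exon, which became 4 at 15 points with no p and 0 to 2 when 1 sample was left out; the cause was not tested. Members called lower with cycloheximide numbered 3 without the probability and 2 at 20 points. Replicate numbers were not taken as pairs in the main fit. Deviations of same-numbered siNT and siQk samples correlated at 0.14, 0.02 and 0.12 over 12930 exons. Samples siQk 1 and siQk 3 correlated best with the siNT sample of their own number, and siQk 2 with siNT 3 (0.05). These values do not settle whether the numbers mark pairs. With a replicate block, 2 alternative 3' splice sites (the Nckap1 pair), the coverage of 1 gene (Wasf1, log2 fold change -0.28) and an exon of 1 listed actin gene (Fmnl2) were called, and no other count of calls among members changed. Over the whole table, 152 cassette exons were called, against 83 to 149 with 1 sample left out and 325 at 15 points with no p. For coverage 457 genes were called, against 43 to 863 with 1 sample left out, 313 with no filter and 1205 with the block. The Abi2 exon had 146 to 449 reads a sample and the Abi1 exon 191 to 717; the part of depth in their calls was not tested.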
